A study of Danio rerio with 8 samples.

Results

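Transcripts of the melanin synthesis enzymes and of the proteins that build, supply and carry the melanosome were followed in zebrafish melanoma cells and in cells sorted from scales. The genes were chosen by symbol: tyr, dct, tyrp1, pmela, slc45a2, slc24a5, oca2, gpr143 and mlpha. These 9 symbols matched 10 rows of a table of 28272 genes, because 2 rows carry the name tyrp1 and are told apart here by their Ensembl identifiers. All 10 rows passed the filter on low counts, as did 26749 genes in all. The row named MLPH was taken as mlpha because another row is named mlphb. RefSeq lists mlphb as an older name of mlpha beside a separate gene mlphb, so which of these rows is mlpha is uncertain.

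Both groups came from adult fish with the same labelled background, which held a mitfa-promoter transgene for human BRAF with the V600E change, EGFP under the mitfa promoter and the alb(b4) mutation. The alb locus is slc45a2, so one of the transcripts described below comes from a gene that is mutated in melanoma and scale cells alike. Cells with EGFP and without pigment had been sorted, and 4 RNA-seq libraries were made from melanomas and 4 from cells that the labels call scale melanocytes. Whether each library came from its own fish is not stated in the labels, and p-values therefore measure a spread among these 8 libraries that may be technical.

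Melanin is made inside the melanosome, a compartment related to the lysosome. Tyrosinase carries out the first oxidation of tyrosine, and Dct and Tyrp1 act on later intermediates. Pmel forms the fibrils on which the pigment is laid down, while the transporters Slc45a2, Oca2 and Slc24a5 set the acidity and ion content of the organelle. Gpr143 is a receptor of the melanosome membrane that in mammals limits melanosome size, and melanophilin joins melanosomes carrying Rab27a to the motor myosin Va. The transcription factors Mitf and Sox10 are known activators of many of these genes in melanocytes.

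Libraries held 86888494 to 100270657 counts. Levels are TMM-normalised counts after scaling by library size (CPM), given as mean ± SD over 4 libraries per group. A change is the log2 fold change of melanoma over scale libraries. It was tested in edgeR by quasi-likelihood, p-values were adjusted over all 26749 genes by Benjamini-Hochberg, and a gene was called at an adjusted p of 0.05. The SE printed after ± is the absolute log2 change over the root of the F statistic, an approximation. Values are listed in the order melanoma replicates 1 to 4, then scale replicate 1, scale replicate 2 and the first and second of the 2 columns that carry the name of scale replicate 3.

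The scale libraries held high levels of epidermis and scale bone markers, cell types that their label does not name. Summed over 11 rows of epidermis markers, melanoma libraries held 492 to 828 CPM and scale libraries 50500 to 108000 CPM, with 11 rows lower in melanoma. The 11 rows of scale bone markers summed to 17.2 to 48.4 CPM in melanoma and to 486 to 8730 CPM in scale libraries, with 10 rows lower in melanoma. SOX10, a transcription factor of the neural crest and its pigment cells, stood at 194, 215, 365 and 434 CPM in the melanoma libraries, against 0.640, 1.24, 0.549 and 0.461 CPM in the scale libraries. MC1R, the melanocortin receptor, was at 7.36 to 31.9 CPM in melanoma libraries and at 0 to 0.336 CPM in scale libraries. KIT, a receptor tyrosine kinase of melanocytes, was at 64.6 to 90.6 CPM in melanoma libraries and at 10.5 to 22.3 CPM in scale libraries. The MITF row ENSDARG00000003732 was at 22.1 to 47.3 CPM in melanoma libraries and at 15.1, 4.56, 5.84 and 0.419 CPM in the scale libraries. A second MITF row, ENSDARG00000037833, was at 0.607 to 2.52 CPM in melanoma and at 2.0 to 4.18 CPM in scale libraries. These genes were named for their role. Of all 15 tested regulator rows, 8 were higher in melanoma and 3 were lower. Among all tested genes, 21.7% were higher and 15.2% lower, so the count of lower regulator rows is near the background. Of the lower rows, LEF1 was at 3.0 to 7.85 CPM in melanoma libraries and at 21.1 to 26.6 CPM in scale libraries. The lower row erbb3b was at 0.812 to 2.68 CPM in melanoma libraries and at 9.86 to 15.9 CPM in scale libraries. Scale libraries also held the pigment transcript pmela, at 11.4 to 39.1 CPM. In bulk samples such as these, fewer cells of a type and less RNA per cell cannot be told apart. For every value below, the effect of the melanoma and the effect of which cell types were sorted cannot be told apart either.

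Of the 10 rows, 9 were higher in melanoma, 0 were lower and oca2 was not called, whereas 21.7% of all tested genes were called higher and 15.2% lower. This balance of 5799 genes higher and 4056 lower depended on the scaling, with 4041 higher and 5667 lower under upper quartile factors and 10873 higher and 1778 lower under total counts alone. No row was lower at an unadjusted p under 0.05 or with DESeq2 or limma-voom. The same 9 rows had every melanoma library above every scale library, a pattern that 21.7% of all tested genes showed, and the opposite pattern held for 0 rows and for 15.2% of all genes. Called changes were 5.49-fold for slc24a5 up to 205-fold for dct, and the median log2 change of the 10 rows was 5.46, against 0.05 over all tested genes. The smallest count of any row in any library was 472 in melanoma and 22 in scale libraries.

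**Figure D1:**
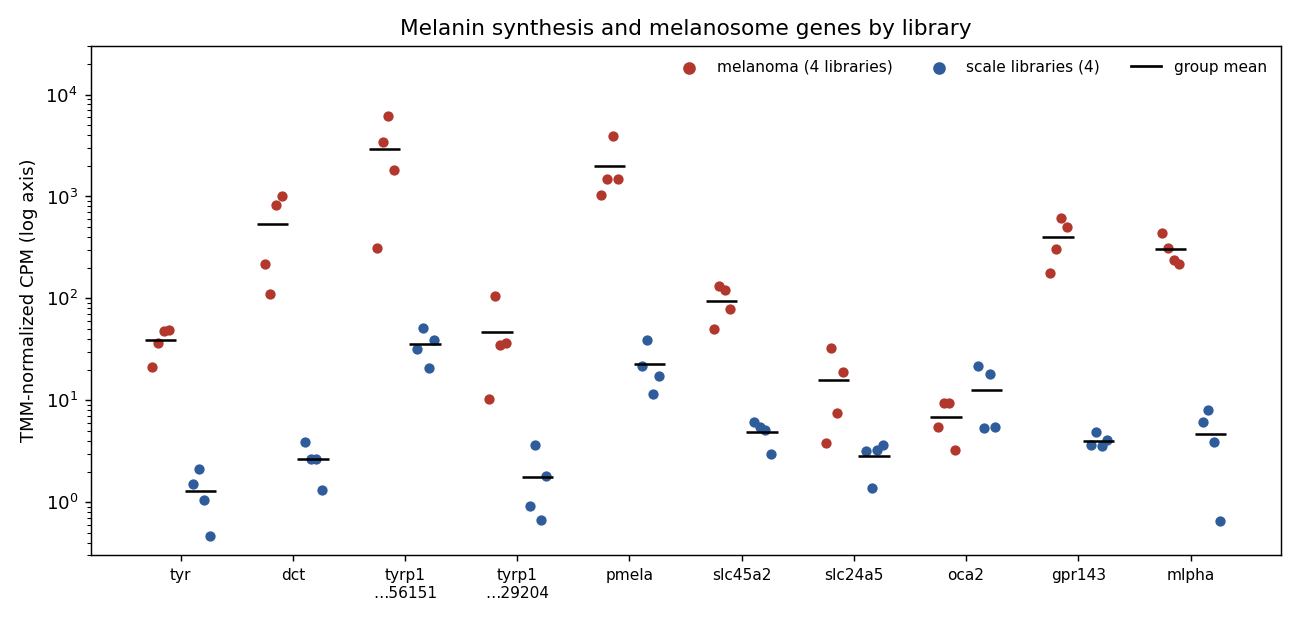
Level of each of the 10 rows in each library, in TMM-normalised CPM on a log axis, with melanoma libraries left of scale libraries and a bar at each group's mean. Every melanoma point lies above every scale point for each row other than oca2, for which the groups overlap.

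The enzyme rows, for tyr, dct and both rows named tyrp1, were all higher in melanoma. The transcript of tyr, which encodes tyrosinase, was at 21.3, 36.5, 47.7 and 48.9 CPM in the melanoma libraries, against 1.51, 2.13, 1.04 and 0.461 CPM in the scale libraries. The groups did not overlap, and the lowest melanoma library of tyr was replicate 1. Mean levels were 38.6 ± 12.9 CPM in melanoma and 1.28 ± 0.709 CPM in scale libraries, a log2 change of 4.91 ± 0.54 (adjusted p = 6.08e-05).

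The dct transcript, for the enzyme dopachrome tautomerase, had the largest change of the 10 rows and the rank 16 among all rises. It was at 215, 110 and 821 CPM in melanoma replicates 1 to 3 and at 1020 CPM in replicate 4, against 3.93, 2.67, 2.66 and 1.32 CPM in the scale libraries. Melanoma replicates 3 and 4 were well above replicates 1 and 2, and even the lowest melanoma library was far above the highest scale library. The log2 change was 7.68 ± 0.85 (adjusted p = 6.39e-05).

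The name tyrp1, for a relative of tyrosinase that acts late in eumelanin synthesis, was carried by 2 rows. RefSeq lists tyrp1a and tyrp1b as separate genes, and which row is which was not determined here. The row ENSDARG00000056151 was at 315, 3390, 6220 and 1800 CPM in the melanoma libraries, against 31.5, 51.3, 20.7 and 39.2 CPM in the scale libraries. This row varied most among melanoma libraries in relative terms, with a 19.8-fold gap between replicate 3 and replicate 1. Its log2 change was 6.36 ± 0.89 (adjusted p = 0.000253) and was 5.69 without melanoma replicate 3, a fold more than 1.5 times smaller.

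The second row, ENSDARG00000029204, was at 10.2, 106, 35.2 and 36.3 CPM in the melanoma libraries, against 0.907, 3.60, 0.671 and 1.82 CPM in the scale libraries. Its highest melanoma library was replicate 2, not replicate 3, so the pair did not follow the same order across libraries. The log2 change was 4.75 ± 0.78 (adjusted p = 0.000672), and it was 3.98 without melanoma replicate 2. Leaving out scale replicate 2 and the second column of replicate 3, the 2 scale libraries with the fewest genes at 10 counts, gave 5.87. Whether reads were split between the 2 rows was not tested.

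The fibril gene pmela was at 1030, 1490, 3930 and 1470 CPM in the melanoma libraries, against 21.9, 39.1, 11.4 and 17.5 CPM in the scale libraries. Melanoma replicate 3 stood apart on the high side, and the lowest melanoma library was still far above the scale libraries. Mean levels were 1980 ± 1320 CPM in melanoma and 22.5 ± 11.9 CPM in scale libraries, a log2 change of 6.46 ± 0.69 (adjusted p = 5.11e-05).

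The 3 transporter genes did not change alike. The slc45a2 transcript, whose product is thought to carry protons or sugars across the melanosome membrane and whose locus is mutated in both groups, was at 50, 131, 121 and 78.4 CPM in the melanoma libraries. The scale libraries had 6.12, 5.47, 5.14 and 2.94 CPM of slc45a2. The groups did not overlap, and the log2 change was 4.27 ± 0.45 (adjusted p = 4.45e-05). The transcript was thus counted in all 8 libraries on the alb(b4) background, and these counts do not bear on its protein.

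The slc24a5 transcript encodes a potassium-dependent sodium-calcium exchanger whose loss gives the golden zebrafish. It was at 3.79, 32.5, 7.58 and 19.0 CPM in the melanoma libraries, against 3.17, 1.38, 3.22 and 3.67 CPM in the scale libraries. Melanoma replicate 1 was barely above the highest scale library, so the absence of overlap rested on a narrow gap. The log2 change of 2.46 ± 0.63 (adjusted p = 0.00942) was the smallest called one. It was 1.83 (adjusted p = 0.0316) without melanoma replicate 2, and without the 2 less complex scale libraries the call was lost at 2.27 (adjusted p = 0.0687).

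The oca2 transcript, for a chloride channel that raises melanosome pH, was the row that did not pass the test. It was at 5.52, 9.35, 9.35 and 3.26 CPM in the melanoma libraries, against 21.8, 5.38, 18.2 and 5.43 CPM in the scale libraries. The scale libraries split into a higher and a lower pair, and the lower pair lay within the melanoma range. The log2 change was -0.89 ± 0.55 (adjusted p = 0.221). The lower pair are the 2 less complex scale libraries, and without them oca2 was called lower in melanoma at -1.58 (adjusted p = 0.0311). A filter of 5 CPM in 4 libraries also called it lower, at -1.59 (adjusted p = 0.0367), while scaling to total counts alone gave 0.02 (adjusted p = 0.983).

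**Figure D2:**
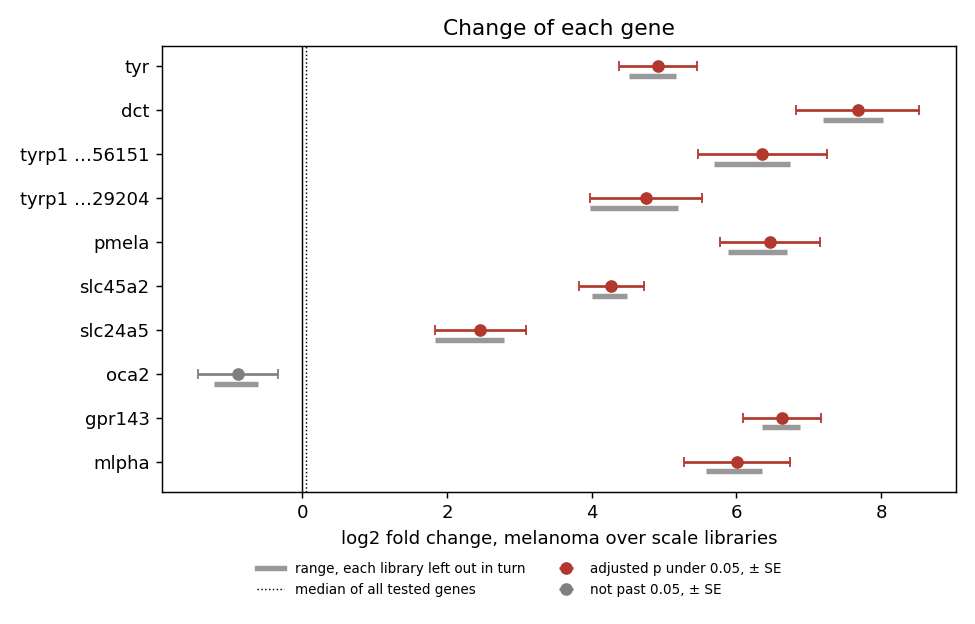
Log2 fold change of melanoma over scale libraries for each of the 10 rows, as points with bars of ± SE, with a grey band for the range over leaving out each library in turn and a dotted line at the median of all tested genes, 0.05. The range stays above 0 for each row other than oca2, whose range is -1.22 to -0.62.

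The receptor gene gpr143 was at 176, 304, 615 and 497 CPM in the melanoma libraries, against 3.61, 4.91, 3.53 and 4.03 CPM in the scale libraries. Its scale libraries lay close together, and its melanoma libraries lay far above them. Mean levels were 398 ± 196 CPM in melanoma and 4.02 ± 0.633 CPM in scale libraries. The log2 change of 6.63 ± 0.54 had the smallest adjusted p of the 10 rows, 1.2e-05.

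The melanosome transport gene mlpha, taken from the MLPH row, was at 442, 311, 240 and 215 CPM in the melanoma libraries, against 6.17, 7.94, 3.93 and 0.650 CPM in the scale libraries. It was the row with its highest melanoma level in replicate 1, the library in which 7 of the 10 rows were lowest. The log2 change was 6.01 ± 0.73 (adjusted p = 0.000107). In the RefSeq annotation of another assembly, GRCz12tu, mlpha overlaps the protein-coding gene trim63a, which encodes a muscle ubiquitin ligase. The trim63a row was at 205, 12.5, 2.51 and 5.56 CPM in the melanoma libraries and at 0 to 0.0977 CPM in the scale libraries. Both rows were highest in melanoma replicate 1, the strand setting of the counting is not given in the sources used here, and the part of shared reads in either value was not tested. Of the 10 rows, 4 overlap another RefSeq gene there; for pmela, slc45a2 and slc24a5 the partner is a long non-coding RNA.

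The spread among melanoma libraries was wider over these 10 rows than over well-expressed genes in general. The median SD of log2 CPM, with 0.1 CPM added, was 0.82 over the 10 rows in melanoma and 0.68 in scale libraries. Over the 8626 genes with a mean of at least 10 CPM it was 0.55 in melanoma and 0.49 in scale libraries. The 10 rows were not held to that threshold, so the 2 sets differ in level. The SD was larger in melanoma for 7 of the 10 rows. Replicate 1 was the lowest melanoma library for 7 rows, replicate 4 for oca2 and mlpha, and replicate 2 for dct. The highest library was replicate 4 for tyr and dct, and replicate 2 for slc45a2, slc24a5 and the tyrp1 row ENSDARG00000029204, so the rows did not share 1 order of libraries.

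**Figure D3:**
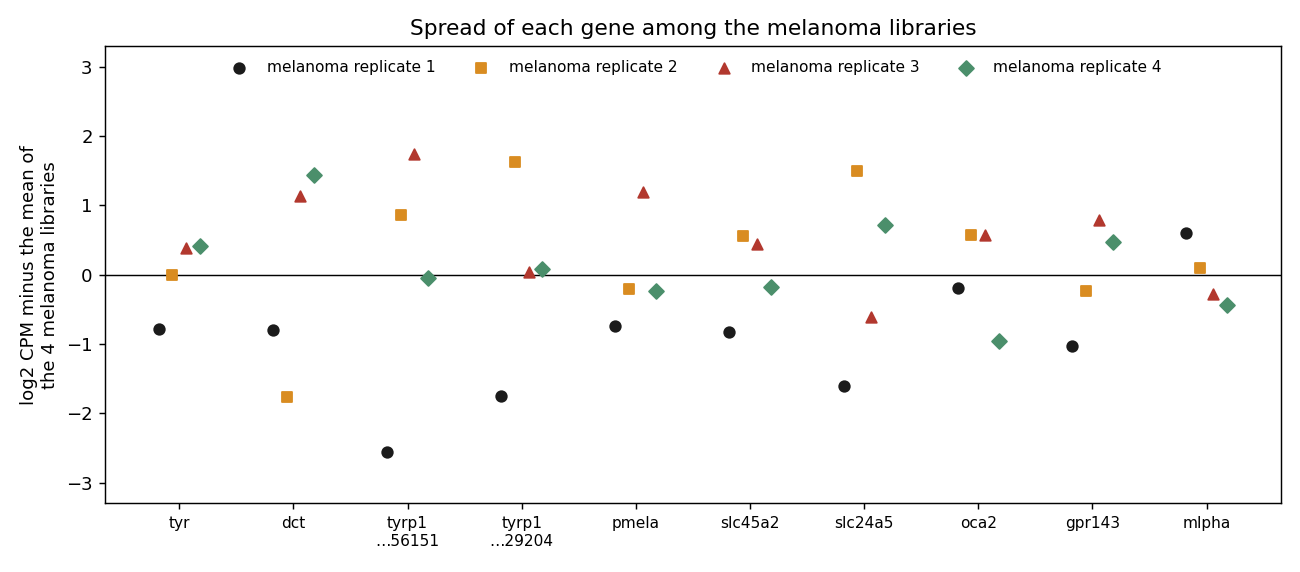
Deviation of each melanoma library from the mean of the 4 melanoma libraries, in log2 CPM, for each of the 10 rows, with 1 marker per replicate. Replicate 1 lies lowest for 7 rows and highest for mlpha, and the tyrp1 row ENSDARG00000056151 has a wide spread.

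Marker sums of other cells also differed between melanoma libraries. The immune list of 5 rows summed to 711 CPM in melanoma replicate 1, 185 CPM in replicate 2, 89.0 CPM in replicate 3 and 196 CPM in replicate 4, and to 60.1 to 133 CPM in scale libraries. Of these rows, 3 were higher in melanoma and 0 were lower, and none had 0 counts in a whole group. For this list and those below, 21.7% of all tested genes were higher and 15.2% lower. The iridophore list of 10 rows, for the reflecting pigment cell of fish, summed to 374, 536, 3140 and 1530 CPM in the melanoma libraries and to 86.2 to 109 CPM in scale libraries, with 7 rows higher and 0 lower. That list includes PAICS, an enzyme of purine synthesis, at 97.4, 199, 362 and 498 CPM in the melanoma libraries. How far the sum reflects iridophores was not tested. In melanoma replicate 3, which had the highest iridophore sum, apoda.1 alone was at 1300 CPM. That replicate was the highest melanoma library for 4 of the 10 rows. Replicate 2 was highest for 3 rows, replicate 4 for 2 and replicate 1 for 1. The xanthophore list, for the yellow pigment cell, summed to 41.7 to 127 CPM in melanoma and to 5.79 to 26.1 CPM in scale libraries, with 1 of 5 rows higher, near the background of 21.7%. That row, slc2a15b, was at 37.2 to 121 CPM in melanoma libraries and made up most of the sum, whereas the median log2 change of the list was -1.31. The list for retinal pigment epithelium, the other tissue that makes melanin, summed to 12.9 to 49.2 CPM in melanoma and to 10.3 to 16.4 CPM in scale libraries. Of its 8 rows 3 were higher, and the groups overlapped in each row. The higher rows were BEST1 and the RPE65 rows ENSDARG00000054420 and ENSDARG00000094752, both matched from 1 listed symbol, rpe65a. Sums of the endothelium, muscle and Schwann cell lists were at most 24.4 CPM in each of the 8 libraries. The part of these cells in the levels of the 10 rows was not tested.

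As a share of all counts, the 10 rows together took 0.379%, 0.809%, 1.76% and 0.822% of the melanoma libraries, against 0.00869%, 0.00579%, 0.00616% and 0.00414% of the scale libraries. The mean was 0.942% ± 0.582 in melanoma and 0.00619% ± 0.00188 in scale libraries. These shares are scaled to total counts alone. Under that scaling the median log2 change was 1.17 over all tested genes, against 0.05 with TMM. For the 10 rows it was 6.62, against 5.46 with TMM, so the gap is wider in shares than in TMM-normalised CPM. Within that pool, oca2 took 0.0629% to 0.243% of the reads in melanoma libraries and 4.34% to 25.9% in scale libraries. The other 9 rows rose in melanoma, so an unchanged row must take a smaller part of this pool there. The absence of overlap in this share is thus no evidence of a change in oca2, for which the groups overlapped in CPM. The tyrp1 row ENSDARG00000056151 took 13.9% to 57.3% of the pool in melanoma libraries and 29.3% to 50.9% in scale libraries. The share of pmela was 25.2% to 45.4% in melanoma libraries and 16.2% to 31.6% in scale libraries, so for both of these rows the groups overlapped.

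**Figure D4:**
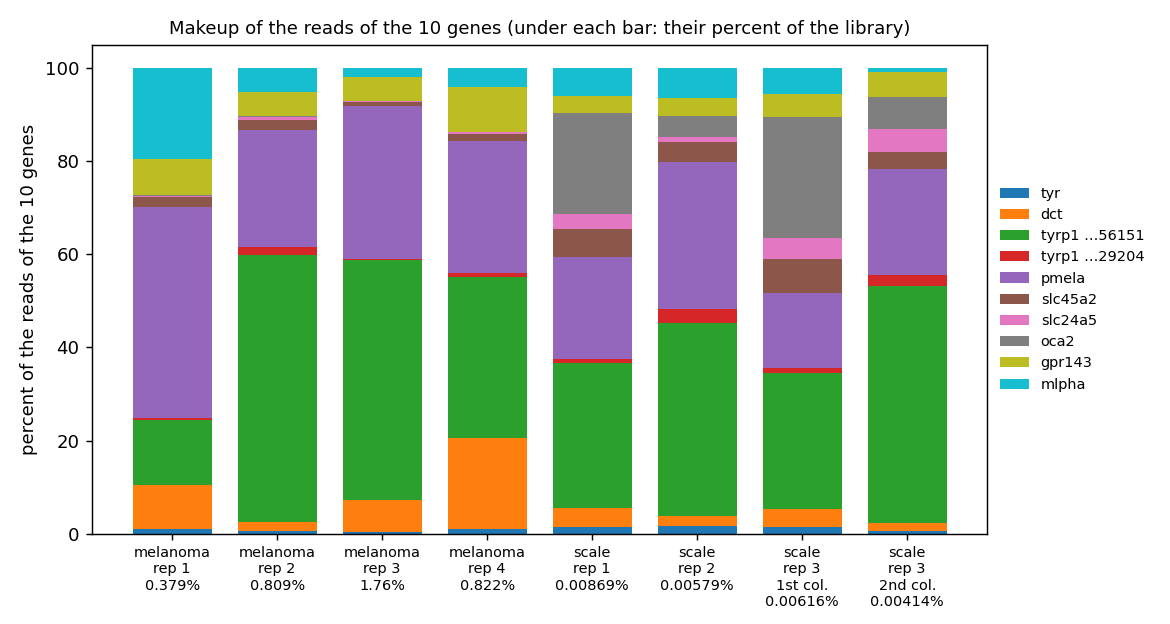
Share of the reads of the 10 rows that fell on each row, in percent, for each library, with melanoma libraries left of scale libraries and the pool's percent of all counts under each bar. Reads are not divided by transcript length, so bar heights compare a row between libraries and not rows with each other.

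Ratios of counts between 2 rows within a library need no scaling between libraries. Of the 45 ratios, 4 are given here, chosen after their values were seen and without a test. The groups did not overlap in 21 of the 45, and in 6 of the 28 that involve neither oca2 nor slc24a5. Of the 21, 9 involve oca2, which was not called higher as the other rows were. Among single tested genes, 21.7% had every melanoma library above every scale library, and 15.2% had the opposite pattern. The share over pairs of other genes was not computed, so whether these counts are particular to the chosen rows was not tested. The count of pmela over that of slc45a2 was 20.6, 11.4, 32.5 and 18.8 in the melanoma libraries, against 3.58, 7.16, 2.22 and 5.95 in the scale libraries. The count of slc45a2 over that of gpr143 was 0.284, 0.431, 0.197 and 0.158 in the melanoma libraries, against 1.69, 1.11, 1.46 and 0.729 in the scale libraries. In neither ratio did the groups overlap, and both times slc45a2 was lower relative to its partner in melanoma than in scale libraries. The same held for slc45a2 against dct and mlpha. Relative to slc24a5 and oca2 it was higher in melanoma, and against tyr and both tyrp1 rows the groups overlapped. The count of tyr over that of dct was 0.0989, 0.333, 0.0581 and 0.0478 in the melanoma libraries, against 0.383, 0.800, 0.390 and 0.349 in the scale libraries, and melanoma replicate 2 lay close to the scale range. The count of pmela over that of gpr143 was 5.84, 4.91, 6.40 and 2.96 in the melanoma libraries and 6.06, 7.97, 3.24 and 4.34 in the scale libraries, with overlapping groups.

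Most rows of a list of sorting genes that serve the melanosome also rose. Whether sorting genes of the lysosome and other organelles rose alike was not tested. Of 25 tested rows for the sorting complexes AP-3, BLOC and HOPS and their partners, 20 were higher in melanoma, 0 were lower and 5 were not called, where 21.7% of all genes were higher and 15.2% lower. Their median log2 change was 2.53 against 0.05 over all genes. None was lower at an unadjusted p under 0.05, with DESeq2 or with limma-voom, and 1 was lower with upper quartile scaling or the 5 CPM filter. AP3M2, a subunit of the AP-3 coat, was at 29.5, 190, 140 and 114 CPM in the melanoma libraries, against 3.12, 2.78, 3.26 and 0.629 CPM in the scale libraries, for a log2 change of 5.59 (adjusted p = 0.000135). HPS1, a subunit of the exchange factor for Rab32 and Rab38, was at 70.1 to 242 CPM in melanoma and at 3.87 to 10.2 CPM in scale libraries (log2 change 4.05, adjusted p = 0.000165). DTNBP1, the BLOC-1 subunit dysbindin, was at 35.0 to 87.8 CPM in melanoma and at 5.49 to 6.53 CPM in scale libraries (log2 change 3.21, adjusted p = 9.12e-05). Its paralog row dtnbp1b was not called, with a log2 change of -0.76 (adjusted p = 0.188). The AP-3 subunit row AP3M1 was not called either, with a log2 change of 0.7 (adjusted p = 0.176).

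In the transport list, 3 of 6 tested rows were higher in melanoma, 1 was lower and the median log2 change was 1.75. Among all genes 21.7% were higher and 15.2% lower, so 1 lower row of 6 is near the background. The row MYO5A, for the myosin Va motor, was at 84.0, 227, 115 and 54.9 CPM in the melanoma libraries, against 14.9, 17.0, 18 and 10.2 CPM in the scale libraries, for a log2 change of 3.0 (adjusted p = 0.000523). Its paralog myo5ab went the other way, at 0.293 to 1.83 CPM in melanoma and 3.69 to 5.76 CPM in scale libraries (log2 change -2.12, adjusted p = 0.012). The row mlphb, which is a second melanophilin gene or, under the older name, mlpha itself, was at 6.24, 1.73, 30.8 and 30.2 CPM in the melanoma libraries, against 0.707, 0.778, 1.17 and 0.755 CPM in the scale libraries, for a log2 change of 4.33 (adjusted p = 0.00145). Its high melanoma libraries were replicates 3 and 4, whereas those of the MLPH row were replicates 1 and 2. RAB27B, a small GTPase of secretory organelles, had a log2 change of 1.57 (adjusted p = 0.00432).

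Of 18 tested rows for other melanosome and substrate genes, 7 were higher, 2 were lower and the median log2 change was 0.38, against 21.7% higher and 15.2% lower among all genes. PCBD1, an enzyme that recycles a pterin cofactor, had a log2 change of 3.46 (adjusted p = 0.000209), and of 4.32 without the 2 less complex scale libraries. GPNMB, a relative of Pmel, ran from 13.2 CPM in melanoma replicate 1 up to 324 CPM in replicate 3 and was at 0.0629 to 4.0 CPM in scale libraries (log2 change 5.45, adjusted p = 0.00445). Leaving out melanoma replicate 3 gave 4.15 (adjusted p = 0.00977). GPNMB is also on the iridophore list, whose sum was highest in that replicate, and the part of those cells in its level was not tested. The rows that fell were ATP7A, a copper pump that loads tyrosinase, at 22.1 to 33.2 CPM in melanoma and 76.3 to 173 CPM in scale libraries (log2 change -2.32, adjusted p = 0.000544), and MFSD12. MFSD12, a cysteine carrier of melanosomes and lysosomes, had a log2 change of -1.12 (adjusted p = 0.0484), close to the threshold. Its call was lost in 9 of 19 alternatives, among them leaving out melanoma replicates 1, 3 or 4, scale replicates 1 or 2 or the second column of replicate 3, which gave -0.92 to -1.33, and its sign turned with total counts alone.

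Of 15 rows for regulators of pigment cells, 8 were higher in melanoma and 3 were lower, with a median log2 change of 2.35. Among all genes 21.7% were higher and 15.2% lower, so the count of lower rows is near the background. The MITF row ENSDARG00000003732 was at 22.1, 36.6, 45.6 and 47.3 CPM in the melanoma libraries, against 15.1, 4.56, 5.84 and 0.419 CPM in the scale libraries. The groups did not overlap, and its log2 change was 2.55 ± 0.75 (adjusted p = 0.0193), which does not pass 0.01. The 8 higher rows of the list were 7 at 0.01, with the 5 CPM filter, without scale replicate 2 and without the first column of replicate 3. The second MITF row, ENSDARG00000037833, was at 0.607 to 2.52 CPM in melanoma and at 2.0 to 4.18 CPM in scale libraries, with overlapping groups and a log2 change of -0.75 (adjusted p = 0.301). Named by adjusted p among rows with a unique symbol, SOX10 rose by a log2 change of 8.71 (adjusted p = 9.21e-06), TFAP2E by 5.40 (adjusted p = 1.95e-05) and TFAP2A by 3.43 (adjusted p = 0.00011). The last 2 encode AP-2 transcription factors. Among the 3 rows that fell were LEF1, a nuclear partner of beta-catenin, at -2.04 (adjusted p = 0.00129), and erbb3b, a receptor needed for pigment stem cells in zebrafish, at -3.03 (adjusted p = 0.000556).

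**Figure D5:**
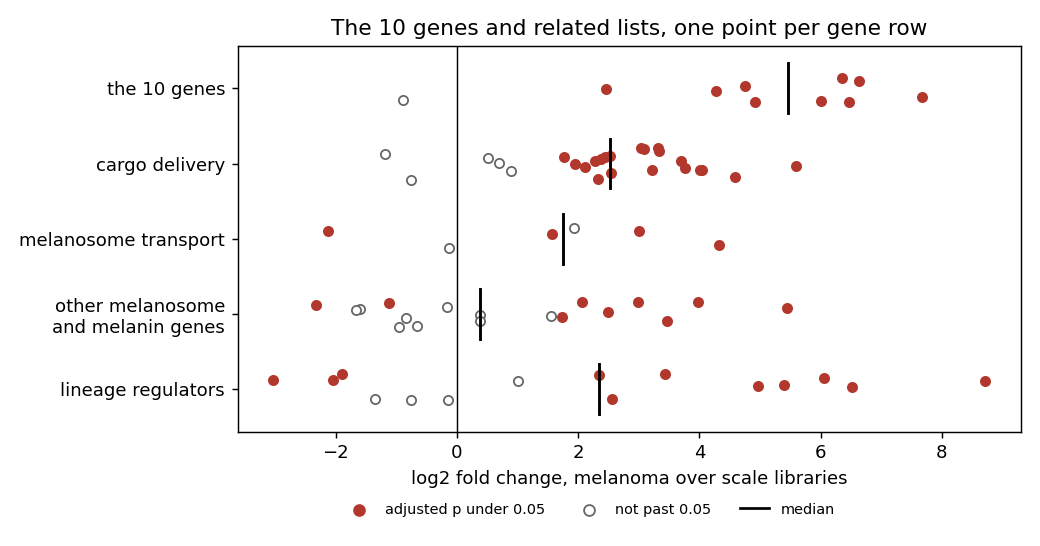
Log2 fold change of melanoma over scale libraries for each tested row of the 10 chosen rows and the 4 lists, with called rows filled and a bar at each list's median. The chosen rows have a median of 5.46, biogenesis 2.53, regulators 2.35, transport 1.75 and other melanosome genes 0.38.

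Genes with the level profile most like that of the 9 called rows were found by the root mean square distance between centred log2 CPM profiles over the 8 libraries, among 5665 other genes with a unique symbol and a mean of at least 10 CPM. The closest were rab34b at 0.35, SYNGR1 at 0.36, SMIM29 at 0.50, and slc2a15b and DMTN at 0.52, all in log2 units. The rows' own distances from their common profile ran from 0.38 for tyr to 1.85 for slc24a5. The rab34b transcript, for a small GTPase, was at 34.5, 142, 87.5 and 95.0 CPM in the melanoma libraries, against 2.35, 3.38, 2.76 and 1.64 CPM in the scale libraries. SYNGR1, a membrane protein of synaptic vesicles, was at 60.8, 222, 418 and 314 CPM in the melanoma libraries, against 6.93, 8.54, 4.14 and 4.36 CPM in the scale libraries. Both were lowest in melanoma replicate 1, as were 7 of the 10 rows. These genes were selected for this likeness, so their closeness is a description.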

How the data were processed

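Per the labels' protocols, RNA of sorted cells was extracted with Trizol and made into TruSeq libraries. Unnormalised read counts per gene, as whole numbers, were deposited by the authors in 1 table. A second deposited table holds normalised signal, the authors' counts divided by 1 size factor per library. Tools named in the submitters' processing notes are STAR 2.3, HTSeq and DESeq2, and the named build is Zv9; what each was used for is not stated. The annotation, the strand setting and how reads with several alignments were counted are not given in those notes or labels. No row summed to under 40 counts or had its maximum under 12. One further allele on the strain label of both groups, and a gene that the rule for named genes picks, are not reported here.

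Table columns were assigned by their names. Both remaining scale columns carry the name of replicate 3 and were used as group members without a number. Symbols were found for 19599 of 28272 identifiers. No pair of replicates agreed within counting noise (smallest chi-square per degree of freedom 127). Total counts of 86888494 to 100270657 per library made counting error small beside the spread between libraries for rows with many counts. This does not extend to rows with few counts. In scale libraries MC1R had 0 to 17 counts and trim63a 0 to 8 counts. TMM factors were 0.467 to 1.67.

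After filterByExpr, the comparison was fitted in edgeR 4.0.16 and R 4.3.3 (quasi-likelihood test, TMM scaling, no term but group, Benjamini-Hochberg adjustment), a script that was also tested on simulated data. Alternatives used DESeq2 1.42.0, limma 3.58.1 voom, other scalings and filters, a replicate block and the removal of libraries. Python 3.11.15, pandas 2.3.3 and matplotlib 3.10.9 made tables and figures. The 10 rows, the marker and gene lists and the tests were chosen with earlier results of these data known. Of 149 listed symbols 120 were matched, 31 of them without the paralog letter. Named list genes were up to 3 higher and 3 lower called rows per list with a unique symbol, by adjusted p. In addition the MITF row, MC1R, KIT and trim63a were named for their role or position. No lengths were used, so levels are not compared between genes.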

Additional observations from a re-analysis of the deposited data

Results flagged for a closer look

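Of 64 groups of 4 libraries examined, 5 held a library far from the others, with a gap to its neighbour, as a part of the group's range, above Dixon's critical value. Chance flags about 1 in 20 if values are normally distributed. The rule was applied to CPM and not to log2 CPM, and which flags hold on a log2 scale was not tested. For pmela, melanoma replicate 3 was at 3930 CPM, with the next library at 1490 CPM. For HPS1, melanoma replicate 2 was at 242 CPM, with the next at 95.3 CPM. For slc2a15b, one of the genes most like the pigment genes in profile, melanoma replicate 1 was lowest at 37.2 CPM, with the next at 112 CPM. For DTNBP1, scale replicate 2 was lowest at 5.49 CPM, with the next at 6.40 CPM. For mlphb, the first scale column of replicate 3 was highest at 1.17 CPM, with the next at 0.778 CPM.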

How the results depend on the processing

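Across 19 alternatives, 186 of 190 values of the 10 rows kept their direction and their side of the threshold. The exceptions were slc24a5, whose call was lost without the 2 less complex scale libraries, and oca2, which was called lower in 2 settings and turned to 0.02 with total counts alone. The count of rows lower in melanoma was thus 1 without the 2 less complex scale libraries and 1 with the 5 CPM filter. Of 416 values of 22 other named genes, 403 held, 12 lost their call (MFSD12 in 9 settings, myo5ab with total counts alone and at 0.01, and LEF1 with total counts alone) and 1 reversed, MFSD12 at 0.12 with total counts alone. That scaling moved the median log2 change of all genes from 0.05 to 1.17, upper quartile factors moved it to -0.39 and the other scalings to -0.06. Genes called higher were 10873 with total counts alone and 3565 at an adjusted p of 0.01, against 5799, all of 26749 tested. The 5 CPM filter left only 12183 genes tested, of which 3272 were called higher and 3283 lower. Its counts are thus not on the same base. Scaling was redone on the genes left, and the median log2 change of the 10 rows was 4.86, against 5.46. Genes called lower were 1778 with total counts alone and 2412 at 0.01, against 4056; upper quartile factors turned the balance, with 4041 higher and 5667 lower. For the biogenesis list, 1 row was lower with the 5 CPM filter and 1 with upper quartile factors. For transport, 0 were lower with total counts alone and at 0.01. With the 5 CPM filter 0 were lower too, because the filter removed myo5ab and left it untested. For the other melanosome genes, 4 were higher without the 2 less complex scale libraries, with the 5 CPM filter, with limma-voom and at 0.01, and 11 with total counts alone; leaving out single libraries gave 4 to 7, with 4 without melanoma replicate 2. In that list 1 was lower without the 2 less complex libraries, with no filter, with total counts alone and at 0.01, and 1 to 2 when single libraries were left out. Among regulators, 1 was lower with total counts alone. The MITF rows, MC1R, KIT and trim63a were not among the 22 other named genes followed here. The cause of these shifts was not tested.

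With replicate numbers 1 and 2 as blocks and the remaining libraries in a shared block, 9 of the 10 rows were again higher and 0 lower. In all, 5420 genes were higher and 3956 lower. Deviations of same-numbered libraries correlated at -0.0186 for replicate 1 and 0.107 for replicate 2, and the other numbers could not be compared. The labels give no shared source for a number, so the numbers were not treated as pairs. The planned order of levels per kilobase was not run, because no transcript lengths were used here. The 4 libraries per group limit the precision, and the cell makeup of the scale libraries is unknown.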
